A study of Mus musculus with 12 samples.

Results

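Splenic B cells of C57BL/6Babr mice were activated in culture with lipopolysaccharide (LPS) and left without DNA damage, and the abundance of their transcripts is described here from 4 of the 12 mRNAseq libraries of the study. Members were the libraries whose labels give LPS as the stimulation and no other agent. All 3 conditions of the study received LPS at 10 µg/ml. The 4 libraries described had LPS for 48 h alone, the other 8 also received the topoisomerase II poison etoposide, 4 of them after the ATM kinase inhibitor KU55933, and none of those 8 is used below. Mice of 8 to 12 weeks were the source per the methods, the cells were isolated with a B cell isolation kit and kept in medium with 5% FCS, and the 4 libraries are described as biological replicates. The labels do not give the sex of the mice, nor do they say if cells without etoposide were harvested at 48 h or after the 4 h of treatment.

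LPS is the cell wall lipid of Gram-negative bacteria and activates B cells without help from T cells. Resting B cells then grow, divide and in part become plasmablasts, which secrete the antibody that B cells otherwise carry as their surface receptor. The B cell receptor is made of a heavy and a light immunoglobulin chain with the signalling subunits Cd79a and Cd79b, and the peptides of antigens that it takes up are shown to T cells on MHC class II, whose assembly needs the invariant chain Cd74.

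The deposited table lists 29486 genes. Summed over genes, the libraries LPS1 to LPS4 held 20.74, 23.01, 23.94 and 21.57 normalized counts in units of 1000000, and the largest total was 1.15 times the smallest. Once each column was divided by its own total, the 4 columns were the same in every gene to within 1e-12. The values are thus the fitted mean of the condition scaled to each library, they hold no spread between replicates, and no SD, interval or test between genes can be had from them. Whether neighbours in an order of levels differ beyond replicate error was not testable for this reason. The lowest mean value was 0.068 counts and no gene stood at 0, so a value near 0 is a fitted value and not an observed count. A sum of 3 counts over the 4 libraries was taken as the floor. Under it lay 3501 of the 18437 protein-coding genes listed (19.0%). Genes named below that lie under the floor include Cd4, Klrb1c, Siglech, S100a8, S100a9, Gcsam, Hba-a1, Hba-a2 and H19.

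Levels between genes are given as TPM, the count divided by the exonic length of the gene and scaled so that all genes sum to 1000000. Counts without length are used only for shares of all counts. A gene at 1 TPM or more is called present. Protein-coding genes close to 1 TPM had a median of 25.2 counts per library. At that count, counting alone gives a relative error of 9.95% over the 4 libraries. Short genes such as immunoglobulin variable segments reach 1 TPM with fewer counts, for which this error is larger. By this rule 10704 protein-coding genes were present, 58.1% of those listed.

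The labelled cell type was checked on 7 B cell genes, and all 7 were present. Ighm, the constant part of the IgM heavy chain (ENSMUSG00000076617, GRCm38 chromosome 12, 113418558 to 113422730, minus strand), had deposited values of 281988, 312850, 325437 and 293245 in LPS1 to LPS4. Cd74 (ENSMUSG00000024610, chromosome 18, 60803848 to 60812652, plus strand) had 64209, 71236, 74102 and 66772. Cd79a (ENSMUSG00000003379, chromosome 7, 24897381 to 24902197, plus strand) had 18251, 20248, 21063 and 18979. LPS3 was the highest and LPS1 the lowest library for each gene, as for the totals, because only the scale differs between the columns. Per length, Ighm was at 22018 TPM, Cd74 at 5632 and Cd79a at 1845. Cd79b, the partner of Cd79a, was at 1812 TPM, the surface protein Ms4a1 (CD20) at 610 and the transcription factor Pax5 at 75.4. These genes spanned a wide range, with the transcription factor lowest and the antibody chain highest.

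**Figure D1:**
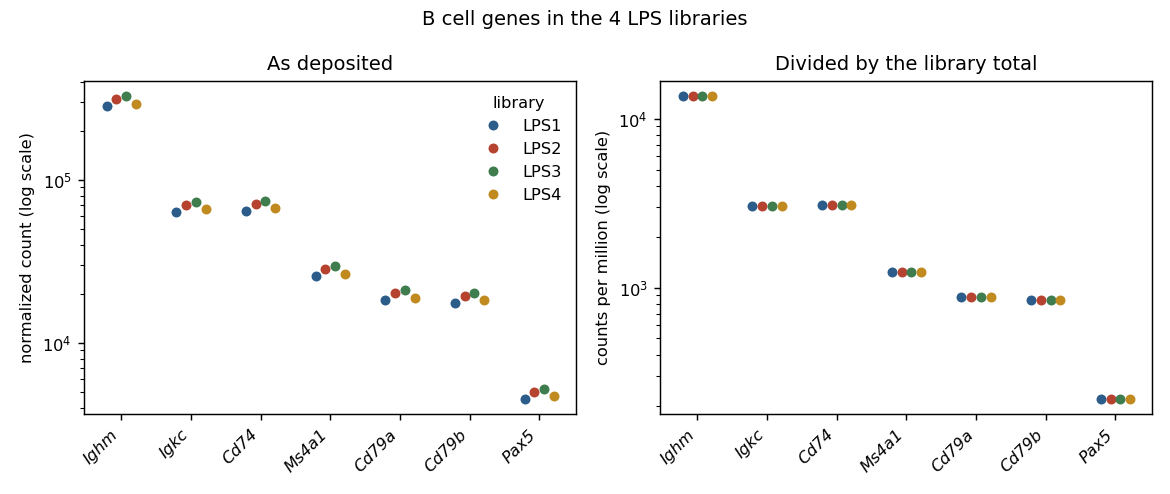
Values of 7 B cell genes in the libraries LPS1 to LPS4 (colours), as deposited normalized counts on the left and as counts per 1000000 of the library total on the right, both on log axes with 1 point per library. Ighm stands highest and Pax5 lowest, and the 4 points of each gene fall together on the right because the columns of the table differ only in scale.

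Short sequences of some transcripts of these cells are shown first. Ribosomal protein genes were the most abundant family, and their mRNAs are known for a 5′ terminal run of pyrimidines that begins with C and ties their translation to growth signals. In the promoter windows of RefSeq (GRCm38.p6), 14 of the 64 ribosomal protein genes with an entry (21.9%) had a C followed by at least 4 pyrimidines exactly at the annotated start, against 389 of 13655 protein-coding genes (2.85%). Of genes at 1000 TPM or more that are not ribosomal protein genes, 1 of 29 (3.45%) had it, near the share over all protein-coding genes. None of 67 mitochondrial ribosomal protein genes and none of 20 translation factors had it at the annotated base, which says only that these letters do not stand at that base. The 4 most abundant of the 14 are printed with 30 bases before and 20 from the start, and capitals mark the pyrimidine run.
Rps6, chr4:86857348-86857397, minus strand: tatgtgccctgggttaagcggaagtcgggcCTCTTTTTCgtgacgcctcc
Fau, chr19:6057917-6057966, plus strand: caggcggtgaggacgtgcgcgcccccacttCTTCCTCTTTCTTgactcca
Rpl14, chr9:120571487-120571536, plus strand: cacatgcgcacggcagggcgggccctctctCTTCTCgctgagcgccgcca
Rpl38, chr11:114668550-114668599, plus strand: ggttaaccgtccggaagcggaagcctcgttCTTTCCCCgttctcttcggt
The runs are 9, 13, 6 and 8 bases long in this order. These genes were at 2604, 2114, 2056 and 2014 TPM.

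Among noncoding RNAs, hosts of microRNAs were present. Mir142hg, which holds the blood cell microRNA miR-142, was at 480 TPM, Mir17hg, the host of the miR-17-92 cluster, at 40.3 and Dleu2, the host of miR-15a and miR-16, at 11.7. The libraries do not measure mature microRNAs, so these levels are those of the host transcripts only. The mature sequences (RefSeq, GRCm38.p6) are given because seeds recur within the hosts, and capitals mark the seed, bases 2 to 8.
mmu-miR-142a-5p: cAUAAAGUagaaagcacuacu
mmu-miR-142a-3p: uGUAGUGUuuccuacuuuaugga
mmu-miR-17-5p: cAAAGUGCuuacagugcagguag
mmu-miR-20a-5p: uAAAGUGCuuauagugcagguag
mmu-miR-18a-5p: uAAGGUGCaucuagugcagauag
mmu-miR-19a-3p: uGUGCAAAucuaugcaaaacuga
mmu-miR-19b-3p: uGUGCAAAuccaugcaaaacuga
mmu-miR-92a-3p: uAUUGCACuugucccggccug
mmu-miR-15a-5p: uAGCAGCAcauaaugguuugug
mmu-miR-16-5p: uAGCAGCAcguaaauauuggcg
The miR-17-5p and miR-20a-5p seeds are the same, as are those of miR-19a-3p and miR-19b-3p and those of miR-15a-5p and miR-16-5p. Mir142hg lies at chr11:87755577-87757270 (plus strand), Mir17hg at chr14:115042879-115046727 (plus strand) and Dleu2 at chr14:61602839-61682373 (minus strand), and each printed microRNA lies inside its host.

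Levels of protein-coding genes formed a broad high group and a broad low group. Of the present genes, 2857 lay from 1 to 10 TPM, 6438 from 10 to 100, 1306 from 100 to 1000 and 103 at 1000 or more. The median of the present genes was 24.5 TPM, with quartiles of 9.27 and 57.2, and the median of all listed protein-coding genes was 4.24. Of all protein-coding genes listed, 42.6% were at 10 TPM or more and 7.64% at 100 or more. Genes under 1 TPM numbered 7733, and 5201 of them were under 0.1. Counts were spread over many genes: the top gene held 1.36% of all counts, the top 10 held 5.47%, the top 100 held 17.8% and the top 1000 held 51.0%. It took 954 genes to reach 50% of the counts, 5404 to reach 90% and 9906 to reach 99%.

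**Figure D2:**
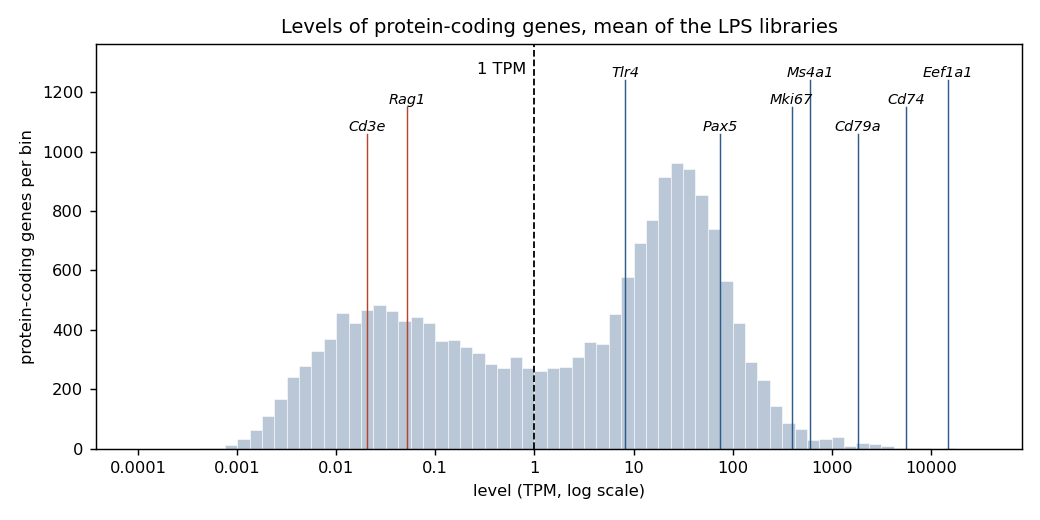
Number of protein-coding genes per level, in TPM on a log axis, for the mean of the LPS libraries, with vertical lines at named genes and a dashed line at 1 TPM. A high mode lies around the median of the present genes, 24.5 TPM. A low mode under 0.1 TPM holds genes such as Cd3e and Rag1 (red lines), and its shape rests in part on fitted values near 0 counts.

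By kind of gene, protein-coding genes took 94.0% of counts and 77.9% of TPM. Immunoglobulin genes took 2.24% of counts and 8.90% of TPM, with a median exonic length of 359 bases for variable segments against 3881 for protein-coding genes, and 248 of 293 listed were present. Other pseudogenes took 2.54% of counts and 10.6% of TPM. Long noncoding and antisense transcripts took 1.03% of counts and 1.54% of TPM, with 850 of 3489 genes present.

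The most abundant transcripts served antibody, protein synthesis and antigen display. Ighm was first at 22018 TPM and Igkc, the constant part of the kappa light chain, second at 17526. Eef1a1, the factor that brings aminoacyl-tRNA to the ribosome, followed at 14861 TPM as the highest protein-coding gene outside the immunoglobulin loci. Of the 20 highest such genes, 13 were ribosomal protein genes, led by Rplp1 at 9274 TPM, Rplp0 at 5876, Rps3a1 at 5513 and Rpl4 at 5029. The other 7 were Eef1a1, the elongation factor Eef2 at 5842 TPM, Cd74 at 5632, the MHC class I light chain B2m at 4636, the chaperone Hsp90ab1 at 3964, actin Actb at 3381 and the chromatin protein Ptma at 3325.

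Ribosomal protein genes summed to 155160 TPM, 15.5% of the total, while they held 8.71% of the counts. Of 90 listed, 86 were present, with a median of 1336 TPM. Those under 1 TPM were Rpl10l at 0.011, Rpl3l at 0.124, Rps12l2 at 0.262 and Rpl39l at 0.466, all of them variant copies named for their likeness to another family member. Rpl24 was at 34.1 TPM, far under the median of the family. Many members have processed pseudogenes of near identical sequence, and reads can be split among the copies, so single values of this family are uncertain. Proteins of the mitochondrial ribosome were present in 75 of 76 genes, with a median of 45.2 TPM.

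Translation and folding factors were also high. Of 25 translation factors 24 were present (median 300.1 TPM): Eef1g stood at 1834, Eef1b2 at 1216, Eif5a at 1011, the helicase Eif4a1 at 530 and the cap-binding Eif4e at 69.7. Eef1a2, the form found in muscle and neurons, was at 0.0203 TPM and under the floor, which puts Eef1a1 at least 301689-fold higher when Eef1a2 is set at 3 counts over the 4 libraries. Eif4ebp1, a repressor of Eif4e, was at 74.2 TPM and Eif4ebp2 at 63.9. All 20 aminoacyl-tRNA synthetases of the family were present, led by Vars at 352 TPM, Gars at 299 and Nars at 269. Factors of ribosome assembly were present in 19 of 19 genes, with the nucleolar proteins Npm1 at 2342 TPM and Ncl at 534.

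Chaperones were present in 17 of 19 genes (median 346 TPM). Hspa8, the constitutive HSP70, was at 1661 TPM and the stress-induced Hspa1b at 1.21 and Hspa1a at 0.547, 2 near identical copies whose reads can be split. Hsp90ab1 was 6.18 times as high as Hsp90aa1, at 641 TPM. The chaperonin subunits Cct2 and Cct5 were at 733 and 572 TPM. The proteasome was present in 37 of 39 genes, with a median of 151 TPM and Psma6 highest at 461.

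**Figure D3:**
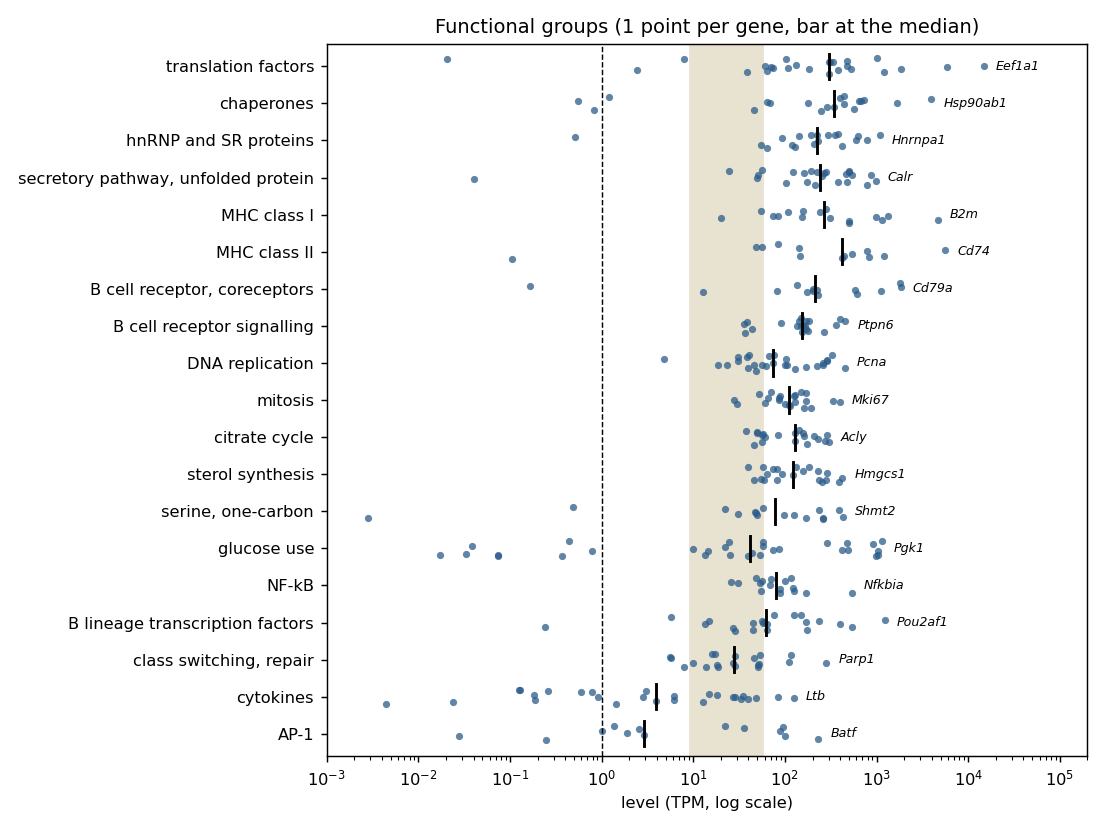
Levels of genes in 19 functional groups, in TPM on a log axis, with 1 point per gene, a black bar at each group's median, the highest gene named, a dashed line at 1 TPM and a shaded band between the quartiles of all present protein-coding genes (9.27 to 57.2 TPM). Group medians lie from 422.9 TPM for MHC class II to 2.92 for AP-1.

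Antibody genes showed mostly IgM with kappa light chains. Ighm made up 97.3% of the TPM of the heavy chain constant genes. Ighd, the IgD chain of mature naive B cells, was at 348 TPM or 1.54%. Of the switched isotypes, Ighg2b was at 151 TPM (0.666%) and Ighg3 at 97.5 (0.431%), Ighg2c at 12.9, Igha at 4.23, Ighg1 at 3.29 and Ighe at 0.409. Ighm was thus 63.2 times Ighd and 146 times Ighg2b, and Ighg2b was 45.7 times Ighg1. The short genes share sequence, and transcripts from an unswitched constant gene are counted with those of switched cells, so the values do not give shares of cells. Igkc was at 17526 TPM against 2047 for Iglc2, so that kappa made 89.5% and lambda 10.5% of the light chain constant genes with a value. Iglc1 and Iglc3 are not analysed here.

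Many of the variable gene segments listed were present. Not all annotated segments were listed, with 146 of 185 for the heavy chain and 101 of 160 for kappa. Of the heavy chain segments listed, 25 lay under the floor of 3 counts. Of 146 heavy chain segments listed, 113 were present, led by Ighv1-26 at 1308 TPM, Ighv1-53 at 629.9 and Ighv1-82 at 618. Of 101 kappa segments 98 were present, led by Igkv1-117 at 1642 TPM, Igkv1-110 at 1532 and Igkv1-135 at 1451. All 3 lambda segments were present, with Iglv1 at 1488 TPM. Summed levels were 16262 TPM for heavy, 21121 for kappa and 2429 for lambda segments. Segments of 1 family are close copies, so single segments are uncertain.

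Partners of antibody assembly and secretion were present in 6 of 6 genes, 5 of them at 100 TPM or more and the lowest at 2.67. The late plasma cell markers Sdc1 and Tnfrsf17, given below, were low. Mzb1, a chaperone of IgM assembly, was at 1160 TPM, although 57.2% of its exonic bases overlap another gene. The ER chaperones Hspa5 and Hsp90b1 were at 868 and 783 TPM, and Jchain, which joins IgM pentamers, at 188. Xbp1, the transcription factor of the secretory pathway, was at 282 TPM, Irf4 at 270 and Prdm1 (Blimp-1), which drives plasma cell fate, at 50.9. Sdc1 (CD138) was at 4.37 TPM and Tnfrsf17 (BCMA), the survival receptor of plasma cells, at 0.214. Of 14 genes of the plasmablast list, 13 were present with a median of 86.2 TPM. The ER group was present in 23 of 24 genes, with Calr at 985 TPM, Pdia4 at 540, P4hb at 499, Atf4 at 458, Hyou1 at 191 and the intestinal Ern2 at 0.0404.

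Receptor complex and signalling genes were present throughout. Of 14 receptor and coreceptor genes 13 were present (median 215 TPM), and Cd79a was 1.02 times Cd79b. The inhibitory receptor Cd22 was at 576 TPM, the Fc receptor Fcgr2b at 225, Cd72 at 202 (41.6% of its exonic bases overlap another gene), the complement receptor Cr2 at 81.5 and the B-1 cell marker Cd5 at 0.165. All 20 signalling genes were present, with a median of 155 TPM. The phosphatase Ptpn6 was at 456 TPM, the adaptor Grb2 at 404, the kinases Syk, Btk and Lyn at 360, 182 and 150, and the phospholipase Plcg2 at 268. The group was narrow, and its lowest gene, the kinase Fyn, was at 35.5 TPM.

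Genes of early B cell development were low, and none of 8 reached 1 TPM: Il7r was at 0.498 TPM, Vpreb1 at 0.318, Dntt at 0.0828, Igll1 at 0.0586, Rag1 at 0.0516 and Rag2 at 0.0029.

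B lineage transcription factors were present in 21 of 22 genes (median 61.6 TPM). Pou2af1, the coactivator of octamer-binding factors, was highest at 1222 TPM, followed by Spib at 535, Ikzf1 at 400 and Irf8 at 233. Pou2f2 was at 172 TPM, Bach2, which holds back plasma cell fate, at 59.2, Ebf1 at 55.6 and Bcl6, the factor of germinal centres, at 13.6. Mef2b was at 0.243. Irf4 was 1.16 times Irf8 with the length of all exons, but 0.587 times with the longest transcript, so their order depends on the length used.

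Genes of class switching were all present, 20 of 20, with a median of 27.9 TPM. Ung, a uracil glycosylase, was at 18.2 TPM. Parp1 was at 284 TPM, the mismatch repair gene Msh6 at 116 and the end-joining genes Xrcc6 and Xrcc5 at 52.1 and 50.7, while Lig4 and Xrcc4 were at 7.89 and 5.71. Of germinal centre genes, Fas was at 19.4 TPM, Mybl1 at 10.4, S1pr2 at 1.02 and Gcsam at 0.00909.

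Antigen presentation was led by its shared chains. MHC class II genes were present in 12 of 13 (median 422.9 TPM), with Cd74 at 54.4% of their sum. The beta chains H2-Eb1 and H2-Ab1 were at 1220 and 825 TPM and the alpha chain H2-Aa at 792. The order of H2-Eb1 and H2-Ab1 turned with the longest transcript (ratio 0.813 in place of 1.48). H2-Ea-ps, the E alpha chain that C57BL/6 mice do not make, was at 0.106 TPM. The protease Ctss was at 546 TPM, the peptide loader H2-DMb2 at 439, the thiol reductase Ifi30 at 423 and the class II transactivator Ciita at 56.1. All 16 class I genes were present: B2m at 4636 TPM, H2-K1 at 1331, H2-D1 at 1134, Tap1 at 244 and the immunoproteasome subunit Psmb8 at 152. H2-K1, H2-D1 and H2-Q7 are close relatives and their reads may be split.

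Sensors of microbial products were present in 8 of 11 Toll-like receptors. Tlr7, which senses RNA, was highest at 123 TPM, then Tlr1 at 97.2 and the DNA sensor Tlr9 at 56.6. Tlr2 was at 12.9 TPM, Tlr6 at 11.3 and Tlr4, the receptor of LPS itself, at 8.29. Deposited values of Tlr4 were 313, 347, 361 and 325 in LPS1 to LPS4, so its low level does not rest on a few counts. Tlr12 was at 4.05 TPM, Tlr3 at 2.54, and Tlr8, Tlr13 and Tlr5 were at 0.0726, 0.0573 and 0.00995. Cd180, the relative of Tlr4 on B cells, was at 93.4 TPM and 11.3 times Tlr4, and its partner Ly86 at 136 was 11.7 times Ly96 (MD-2), the partner of Tlr4, at 11.7 TPM. Cd14, which hands LPS to Tlr4 on myeloid cells, was at 0.36 TPM. Unc93b1, which brings the nucleic acid sensors to endosomes, was at 455 TPM, Irak1 at 116 and the adaptor Myd88 at 63.1.

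**Figure D4:**
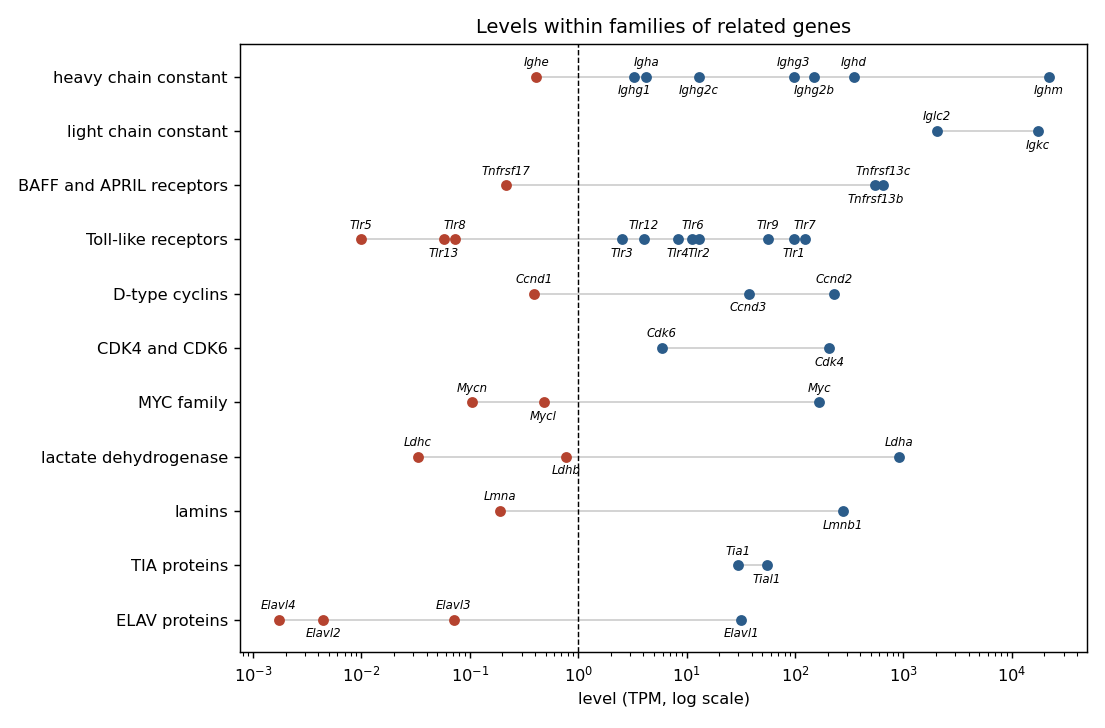
Levels within 11 families of related genes, in TPM on a log axis, with 1 point per gene (blue at 1 TPM or more, red under it) and a line over the range of each family. In several families 1 member stands far above the rest, such as Ighm at 22018 TPM among heavy chains and Ldha at 908 among lactate dehydrogenases, while Tia1 and Tial1 lie close together.

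NF-kB genes were all present, 16 of 16, with a median of 79 TPM. The inhibitor Nfkbia was highest at 539 TPM, followed by Nfkb2 at 169, Nfkb1 at 127, Nfkbiz at 121 and Nfkbie at 116. Rela was at 89.2 TPM and Rel at 55.5. All 7 STAT genes were present, from Stat6 at 152 TPM to Stat5a at 23.6. Interferon regulatory factors were present in 8 of 9 genes, with Irf5 at 161 TPM and Irf7 at 92. All 22 interferon-stimulated genes listed were present: Isg15 at 421 TPM, Bst2 at 337, Oasl1 at 174 and Mx1 at 76.3, with a median of 62.6. The AP-1 group was uneven, with 11 of 13 present and a median of 2.92 TPM: Batf was at 232, Junb at 101, Jund at 95.9 (52.6% of its exonic bases overlap another gene), Jun at 35.9, Fos at 2.92 and Fosb at 0.247. Batf was 79.6 times Fos. Of the immediate early genes, the antiproliferative Btg2 and Btg1 were at 189 and 144 TPM, and Egr1 at 6.36.

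Activation markers were all present, 20 of 20 (median 33.5 TPM). Cd24a was at 1128 TPM, Cd83 at 579, the low affinity IgE receptor Fcer2a (CD23) at 373, Cd38 at 145, Cd44 at 96.6 and Cd40 at 87.9. The costimulatory ligands differed, with Cd86 at 47 TPM and Cd80 at 9.92. The early marker Cd69 was at 28.7 TPM, and Cd83 was 20.2 times as high. Of the TNF receptor family 9 of 13 were present: the BAFF receptor Tnfrsf13c was at 645 TPM and Tnfrsf13b (TACI) at 551. Tnfrsf13c was 3009 times Tnfrsf17, the third receptor that binds BAFF. Of 13 markers of B cell subsets 12 were present (median 46 TPM), 4 of them at 100 TPM or more. Zbtb32 was at 346 TPM and Notch2, the receptor of marginal zone fate, at 119. Lower on the same list were Cd1d1 at 19.8, Cd9 at 16.4, S1pr3 at 6.22 and Myof at 5.52 TPM.

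Homing receptors were present in 18 of 19 genes. Cxcr5, which leads to follicles, was at 332 TPM, Ccr7 at 301, the integrin Itgal at 214, Ccr6 at 106, Gpr183 at 63.9 and S1pr1, needed to leave lymphoid tissue, at 27.1. Over the chemokine receptor family 10 of 22 were present, whereas of 33 chemokines only 7 were, led by Ccl5 at 34.9 TPM and Ccl22 at 27.

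Of 27 cytokines listed 17 were present, with a median of 3.9 TPM, close to the median of 4.24 over all listed protein-coding genes. The membrane lymphotoxin subunit Ltb was highest at 125 TPM. Ebi3 and Il12a, the subunits of IL-35, were at 84.5 and 39.9 TPM, Tgfb1 at 47.8, Il10, an immunosuppressive cytokine, at 28.4, Tnf at 18.2 and Il6 at 15. Of T cell cytokines, Il2 was present at 3.05 TPM, while Il4 was at 0.602, Ifng at 0.0241 and Il21 at 0.00443. In the whole family of interleukin genes 8 of 30 were present, with Il16 highest at 50.5 TPM. Cytokine receptors were present in 17 of 21: Il21r was at 354 TPM, the common gamma chain Il2rg at 185, Il10ra at 155 and Il4ra at 54.8, while Il2rb was at 2.59 TPM against 77.3 for Il2ra.

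Replication and mitosis genes were present without exception on these lists. All 27 replication genes were present (median 73.4 TPM), with the clamp Pcna at 447, the helicase subunits Mcm3, Mcm5 and Mcm4 at 329, 289 and 284 and the ribonucleotide reductase Rrm2 at 259. Fen1 was lowest at 4.74 TPM, and 84.2% of its exonic bases overlap another gene. All 22 mitosis genes were present (median 112 TPM), led by the proliferation marker Mki67 at 395 TPM, Top2a at 335, Cdc20 at 192, Ccnb2 at 172, Bub1b at 168 and Plk1 at 161. Mki67 and Top2a changed places with the longest transcript, at 304 and 445 TPM. Only 25 of 63 histone cluster genes were present, with Hist1h4i highest at 26.7 TPM. Most of these mRNAs lack a poly(A) tail, and the libraries were made from polyA RNA. Histone variants were higher, with H3f3b at 551 TPM, H2afz at 517 and H2afx at 164.

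Among cyclins and their kinases, Ccnd2 was the main D-type cyclin at 230 TPM, 6.18 times Ccnd3 (4.04 times with the longest transcript) and 591 times Ccnd1, which was at 0.39. Cdk4 was at 207 TPM and 35.1 times Cdk6, at 5.89. Ccna2 was at 140 TPM, Ccnb1 at 111, Ccne1 at 39.7 and the mitotic kinase Cdk1 at 61.3. Of the inhibitors, Cdkn1b (p27) was at 111 TPM, Cdkn2a at 17.9, Cdkn1a (p21) at 13.9 and Cdkn1c at 0.225. Myc, which drives growth, was at 167 TPM, against 0.478 for Mycl and 0.105 for Mycn, and its partner Max was at 92.8.

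Genes of the DNA damage response were present in these undamaged cells. Trp53 (p53) was at 177 TPM, the 699th highest protein-coding gene, and 12.7 times its target Cdkn1a, whereas the relatives Trp73 and Trp63 were at 0.89 and 0.00745. Deposited values of Trp53 were 4861, 5393, 5610 and 5055 in LPS1 to LPS4. The ubiquitin ligase Mdm2 was at 62.2 TPM and Mdm4 at 89.1. Of the kinases, Atm was at 96.6 TPM, Atr at 13, Chek1 at 40.6, Chek2 at 34.7 and Mapkapk2 at 174. The targets of etoposide, Top2a and Top2b, were at 335 and 69.4 TPM.

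Of 18 genes of the BCL2 family 15 were present. Mcl1, which protects from apoptosis, was at 531 TPM, 6.80 times Bcl2 and 14.2 times Bcl2l1, the latter 7.93 times with the longest transcript. Bcl2a1d, Bcl2a1b and Bcl2a1a were at 475, 185 and 166 TPM, but they are near copies and 49.1% of the exonic bases of Bcl2a1b overlap another gene. The pore former Bax was at 168 TPM and Bak1 at 74.5, and the BH3-only genes Bid, Bcl2l11, Pmaip1 and Bbc3 at 92.1, 76.3, 52.1 and 28. Bik, Hrk and Bok were under 1 TPM. Of the caspases, Casp8 was at 107 TPM and Casp9 at 23.7.

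RNA-binding proteins of stress granules and processing bodies were all present, 20 of 20 (median 55.3 TPM). Pabpc1, which binds the poly(A) tail, was at 870 TPM, Ybx1 at 839, the helicases Ddx3x and Ddx6 at 319 and 240, G3bp1 at 204 and Caprin1 at 201. Tia1, a U-rich binding protein of stress granules, was at 29.8 TPM and its relative Tial1 (TIAR) at 55.3. The order of the pair depends on the length used, since Tial1 was 1.86 times Tia1 with all exons and 0.818 times with the longest transcript. The decapping genes Dcp2 and Dcp1a were at 55.2 and 37 TPM. Of the proteins that bind U-rich or AU-rich sites, 20 of 24 were present: Ptbp1 was at 290 TPM, Hnrnpc at 280, Ptbp3 at 225, Khsrp at 169, Zfp36l1 at 101, Zfp36 at 70.9 and Elavl1 (HuR) at 31.9. The neuronal Elavl2, Elavl3 and Elavl4 were at 0.00445, 0.0711 and 0.00173 TPM, with Elavl2 and Elavl4 under the floor. Splicing factors were high, with 18 of 19 present and a median of 223 TPM, among them Hnrnpa1 at 1088, Hnrnpa2b1 at 780 and Srsf5 at 383. Hnrnpll, a splicing regulator of memory T cells and plasma cells, was at 0.51 TPM.

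Several steps of glucose use had 1 main member among related genes. Pgk1, Pkm, Gapdh, Aldoa and Ldha were at 1140, 1044, 1026, 997 and 908 TPM. Ldha was 1168 times Ldhb, at 0.778, and 1770 times with the longest transcript. With the length of all exons, Pkm was at least 32911-fold higher than the liver form Pklr, which was under the floor. The glucose carrier Slc2a1 was at 57.3 TPM, Slc2a3 at 22.3 and the insulin-dependent Slc2a4 at 0.0736. Hexokinases Hk2 and Hk1 were at 53.5 and 39.2 TPM, and 22 of 30 genes of the list were present.

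All 20 citrate cycle genes were present, with a median of 129 TPM, as were all 21 sterol synthesis genes, with a median of 122. Hmgcs1 was at 423 TPM, Idi1 at 388 and Cyp51 at 288. In serine and one-carbon metabolism 14 of 16 were present: the mitochondrial Shmt2 was at 434 TPM and 7.52 times the cytosolic Shmt1, Phgdh was at 387, Psat1 at 257 and Mthfd2 at 170. The amino acid carriers Slc1a5, Slc7a5 and Slc3a2 were at 221, 220 and 155 TPM. ATP synthase genes were present in 17 of 17, led by Atp5a1 at 976 TPM, cytochrome oxidase genes in 14 of 17 and complex I genes in 44 of 45. Genes of the mitochondrial genome itself are not analysed here.

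Chromatin genes included Ptma at 3325 TPM, Hmgb2 at 610, Hmgb1 at 263, Uhrf1 at 291 and the maintenance methyltransferase Dnmt1 at 210, 10.0 times Dnmt3a at 20.9. Ezh2, the methylase of Polycomb, was at 96.5 TPM, 5.25 times Ezh1. The cytoskeleton list had 25 of 31 present: Actb was 2.69 times Actg1, Tmsb4x was at 2605 TPM, Cfl1 at 1211, Tubb5 at 1105 and the leukocyte protein Coro1a at 1044. Lmnb1 was at 275 TPM and Lmna at 0.19, a ratio of 1446. Of 14 genes in common use as reference genes all were present, from Rplp0 at 5876 TPM to Tbp at 11.1.

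Other cell types of the spleen were checked with their own markers. In bulk libraries fewer cells of a type and less RNA per cell cannot be told apart. Of 18 T cell markers only the kinase Lck was present, at 17.4 TPM. The defining chains were under 1 TPM, with Cd3e at 0.0206, Cd4 at 0.0251, Cd8a at 0.0647 and Trac at 0.374, and none of 31 T cell receptor variable segments reached 1 TPM. Cd3e and Cd4 summed to 2.46 and 2.96 counts over the 4 libraries. Both are under the floor, as are all 31 of these variable segments. NK cell markers were low, with Tbx21 highest at 1.65 TPM, Prf1 at 1.02 and Klrb1c at 0.0208.

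Of 16 macrophage markers 8 were present. Ctss at 546 TPM and Mpeg1 at 143 led the list, and Ctss also belongs to the MHC class II genes above. Cd68 was at 10 TPM, Ly6c2 at 7.27, Itgam at 5.28 (68.7% of its exonic bases overlap another gene), Lyz2 at 3.14 and Adgre1 at 1.82, while the defining receptor Csf1r was at 0.0871 and Fcgr1 at 0.0828. Of 10 dendritic cell markers 5 were present, with Bst2 at 337 TPM, which is also an interferon-stimulated gene listed above, Flt3 at 54.6, Batf3 at 1.87, Zbtb46 at 1.46 and Xcr1 at 1.11, and with Itgax at 0.1 and Siglech at 0.0223. Of 11 neutrophil markers only Cxcr2 was present, at 1.48 TPM, and S100a8 and S100a9 were at 0.0372 and 0.088.

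Hbb-bt and Hbb-bs, beta globins of red cells, were at 25.2 and 9.53 TPM, whereas the alpha globins Hba-a1 and Hba-a2 were at 0.113 and 0.124 and the red cell enzyme Alas2 at 0.359. The alpha globins are near identical copies of each other, so their values are uncertain. Pf4 was highest of the platelet markers at 1.32 TPM. No mast cell marker was present. Of stromal and vessel markers, Pecam1, which leukocytes also carry, was at 70.8 TPM and Cdh5 at 1.16, and the collagen Col1a1 was at 0.131. The summed level of each list was 33117 TPM for B cells, 22.1 for T cells, 2.79 for NK cells and 718 for macrophages. It was 396 for dendritic cells, 2.57 for neutrophils, 36.1 for red cells and 73.3 for stroma. The lists differ in size, and the highest gene held most of each sum. Ighm held 66.5% for B cells, Lck 79.0% for T cells and Ctss 76.0% for macrophages. Bst2 held 85.0% for dendritic cells and Pecam1 96.5% for stroma. The sums thus do not give amounts of cells.

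**Figure D5:**
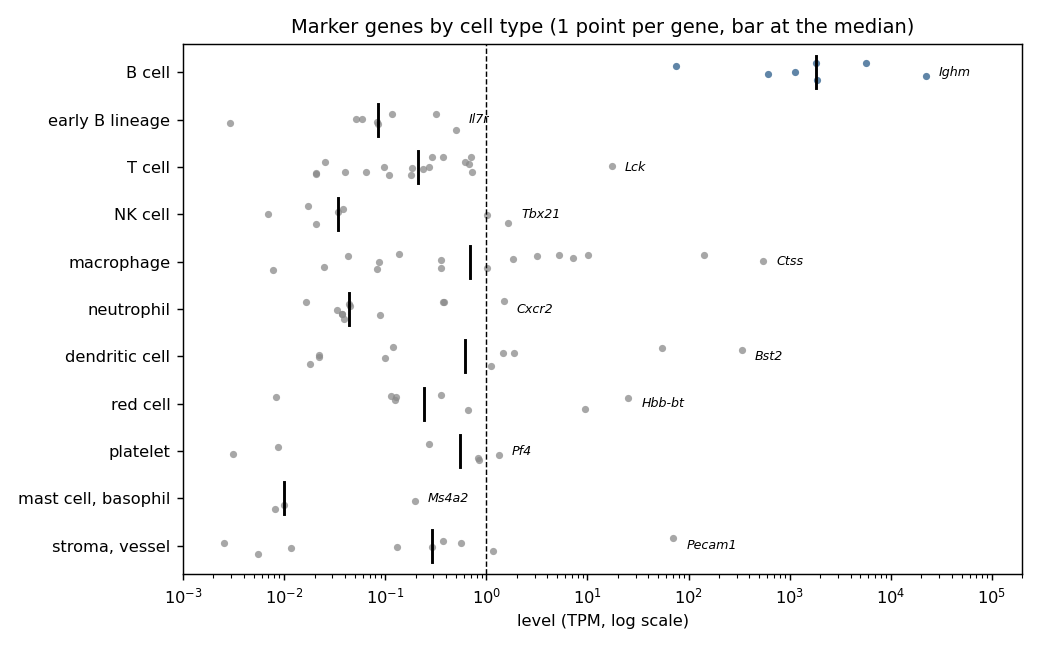
Levels of marker genes of 11 cell types or stages, in TPM on a log axis, with 1 point per gene, a black bar at each median, the highest gene named and a dashed line at 1 TPM. All 7 B cell markers lie above 75 TPM, whereas the median of each other list is under 1 TPM.

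Families of genes typical of other tissues served as a check at the low end. Of 220 olfactory receptor genes listed, pseudogenes included, 6 reached 1 TPM, led by Olfr613 at 7.88. Of the 202 protein-coding ones 4 did. Of 109 vomeronasal receptor genes listed, pseudogenes included, 3 reached 1 TPM, and of the 76 protein-coding ones 1 did. Not all annotated genes were listed, with 220 of 1407 for olfactory and 109 of 567 for vomeronasal receptors. Of 38 keratins 2 were present and of 37 Hox genes only Hoxb4, at 3.85 TPM. None of 13 defensin genes listed, of 82 annotated, was present. The keratin at the top was Krt222, at 24.9 TPM. Of 7 taste receptor genes listed, of 43 annotated, 1 was present, Tas1r3 at 1.96 TPM. No gene of the liver list and none of the muscle list was present, with albumin (Alb) at 0.186 TPM. Of 6 neuron genes 2 were present, Tubb3 at 2.50 TPM and Map2 at 1.08. Of 85 cytochrome P450 genes listed 14 were present (13 of the 78 protein-coding ones), and the highest was the sterol enzyme Cyp51. By contrast 301 of 364 zinc finger genes named Zfp, 45 of 59 Rab genes and all 9 Gimap genes were present, the last led by Gimap4, a GTPase of lymphocytes, at 641 TPM.

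Xist, the RNA that silences an X chromosome in female cells, was at 106 TPM, and the Y-linked genes Eif2s3y, Ddx3y, Kdm5d and Uty were at 63.8, 60.1, 11.7 and 10.7 TPM. Both kinds were thus present in the mean of the 4 libraries, and which library carried which cannot be read from fitted means. Of other long noncoding RNAs, Gas5 was at 325 TPM, Malat1 at 242 and Neat1 at 34.5, while H19 and Meg3 were at 0.0215 and 0.0439. The gene Snhg7, listed as a snoRNA, was at 404 TPM on a length of 139 bases, of which 91.4% overlap another gene.

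Of the 5 highest noncoding genes 4 are annotated as pseudogenes and Gm10076 as a lincRNA, and their sequences were matched to genes. Gm9800, at 2952 TPM, matched Ptma at 99.1% over 336 bases. Rps6-ps4, at 1915 TPM, matched Rps6 at 100% over 750 bases, and Gm10076, at 1679 TPM, matched Rpl41 at 99.5% over 383 bases. Gm10222, Gm13341 and the lower Gm29216, at 2014, 1908 and 1424 TPM, matched the mitochondrial genes mt-Nd4l at 100% over 294 bases, mt-Co2 at 95.9% over 684 and mt-Co1 at 99.8% over 483. The next lincRNA, Gm26880 at 1620 TPM, had its best match to Cnbd2 over only 274 of its 1318 bases. Levels of the close copies and of the genes they match cannot be told apart where reads match both.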

How the data were processed

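The authors isolated polyA RNA, made TruSeq mRNA libraries, trimmed reads with Trim Galore and cutadapt 1.2.1, mapped them with TopHat2 2.0.12, counted them on Ensembl 78 genes (GRCm38) with HTSeq and scaled them in DESeq2 1.6.3. The strand setting of the counting is not given in the sources used here. The deposited table holds a signal, the authors' normalized count, for each gene in each library. The deposited comparisons of the authors (fold changes and p-values between conditions) were not used.

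Columns LPS1 to LPS4 were divided by their totals, averaged, divided by the union exonic length of GENCODE M21 (29258 genes, 99.2%) and scaled to TPM. Computation used Python 3.11.15, pandas 2.3.3, numpy 2.4.6, matplotlib 3.10.9 and BLAST 2.17.0, and was tested on simulated data. Gene lists were written from general knowledge. The members and lists were chosen with earlier results of these data known. Results for some genes are not reported here. Named genes are the 20 highest protein-coding genes, the highest members of each list and family, best known members under 1 TPM and the 5 highest noncoding genes, pseudogenes included and immunoglobulin genes not. Genes such as Fen1, Rpl24, Gm29216 and Gm26880, and ratios, were chosen after their values were seen. Alternatives were other thresholds, lengths, denominators and leaving out libraries. Intervals are absent because the table holds no spread, and counting errors cover counting only.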

Additional observations from a re-analysis of the deposited data

How the results depend on the processing

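The number of protein-coding genes present ranged from 10047 at a threshold of 2 TPM to 11390 at 0.5 TPM, and was 11518 with at least 10 depth-scaled counts, 10662 with the longest transcript and 10781 without immunoglobulin genes. The shares of counts in the top 1, 10, 100 and 1000 genes were 1.24%, 4.36%, 16.7% and 50.4% without immunoglobulin genes and 1.29%, 4.54%, 17.4% and 51.9% with protein-coding genes only. The median of present genes was 26.1 TPM with the longest transcript and 26.6 without immunoglobulin genes. With the longest transcript, 71 of 933 list genes moved by over 1.5 times and 7 changed side of 1 TPM. No list sum of 72 moved by over 1.5 times, and 63 of 72 lists had the same highest member. Among the lists that changed, Syk passed Ptpn6 (483 against 426 TPM) and Hnrnpa2b1 passed Hnrnpa1 (1083 against 846). Likewise Pkm passed Pgk1 (1651 against 1078 TPM) and H2afz passed H3f3b (660 against 502). Leaving out each library in turn changed no value, since the columns differ only in scale. Leaving out genes of the mitochondrial genome was not run, because none is in the table used. No paired analysis was possible because no test was made and the columns hold no spread between replicates.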
